A study of Rattus norvegicus with 82 samples.

Results

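The right ventricle (RV) of rats whose failing heart worked against a banded pulmonary artery (RV PAB-F, 6 libraries) was compared with the RV of sham-operated rats (RV Sham-F, 9 libraries). These 15 of the 82 libraries of the study were taken by their labels, and each library held the cardiomyocyte RNA of 1 animal. All rats were F1 offspring of Wistar Kyoto mothers and Lewis fathers. The pulmonary artery was clipped in young rats without narrowing it, so that the clip became a stenosis, and the RV a pressure-loaded ventricle, as the animal grew. By the labels, PAB-F animals (4 males, 2 females) were 28 weeks old, 22 weeks after surgery, and Sham-F animals (4 males, 5 females) were 31 weeks old, 26 weeks after surgery. The study calls its shams age-matched and states ages that differ from those of the labels. In both sources the Sham-F animals were the older ones, and the exact difference in age is not known. Such a difference and the banding cannot be told apart by group, and the part of age in the results was not tested. RV Sham-F and the RV of shams at an age of 11 weeks (RV Sham-H, 7 libraries) span other ages. Between them 6 of 11954 genes differed at an adjusted p under 0.05 in edgeR, and 601 at an unadjusted p under 0.05. Further groups used for comparison are the left ventricle (LV) of the same PAB-F and Sham-F animals, the RV of banded rats at the compensated, hypertrophic stage (RV PAB-H, 6 libraries, 11 weeks of age, 7 weeks after surgery) and the RV of rats failing from a banded aorta (RV AOB-F, 7 libraries, 31 weeks of age, 26 weeks after surgery). Hearts were digested with collagenase, and cardiomyocytes were enriched by sieving and slow centrifugation but not sorted. In such a bulk sample, fewer cells of a type and less RNA per cell cannot be told apart.

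The RV is a thin-walled pump for the low resistance of the lung circulation. When the pressure in the pulmonary artery stays high, its cardiomyocytes grow in width, the wall thickens, and the ventricle later dilates and fails. Loaded cardiomyocytes are known to use genes of the fetal heart again, among them the natriuretic peptides, the slow myosin heavy chain and the skeletal muscle form of actin, and to signal to fibroblasts through secreted factors such as transforming growth factor β (TGFβ).

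Depth was 9021262 to 15898376 counts per library in RV PAB-F and 10618946 to 14421260 in RV Sham-F. RV PAB-F replicate 1 stood apart. It had the lowest depth of the 15 libraries, its log2 CPM correlated with those of the other banded libraries at a median r of 0.957 across genes against 0.976 to 0.98 for the other 5, and its quality weight in limma was 0.41 against 0.79 to 1.44. The 10 ventricular cardiomyocyte markers took 9.13% of its counts, against 10.3% to 12.6% in the other banded libraries and 10.9% to 12.9% in RV Sham-F. Fibroblast markers took 0.201% against 0.0719% to 0.171% and 0.0392% to 0.12%, and macrophage markers took 0.0356% against 0.0036% to 0.0105% and 0.0027% to 0.00838%. Endothelial markers took 0.253% against 0.111% to 0.189% and 0.082% to 0.14%, and mural cell markers 0.645% against 0.451% to 0.51% and 0.424% to 0.451%. Of 8 neutrophil markers, 0 had enough counts to be tested. The 10 ventricular cardiomyocyte markers include the myosin genes *Myh6* and *Myh7*, whose own changes are given below. Their part in the lower share of replicate 1 was not tested. Because of this library, every result below is given for 6 against 9 libraries and, where it matters, for 5 against 9.

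Below, a normalized count is a raw count per gene scaled to a common depth, a log2 fold change is given ± SE, and p-values are from edgeR and adjusted over all genes tested (Benjamini-Hochberg). Of 11954 genes tested, 1325 differed between RV PAB-F and RV Sham-F at an adjusted p under 0.05 (11.1%), 916 of them higher (7.66%) and 409 lower (3.42%) after banding. Among them 408 differed by more than 1 on the log2 scale, and 371 of these were higher. Without a filter on low counts the split was 648 higher and 545 lower. The criteria of the study were a log2 fold change above 1 in size and p before adjustment not over 0.01. They also asked for more than 50 normalized counts on average in the banded group. In the edgeR fit 227 genes met these criteria (1.9%). The study, which used fold changes shrunk by DESeq2, reports 160 genes, and such a fit here gave 160 as well. Whether these are the same genes was not examined. Without RV PAB-F replicate 1, 358 of 12015 genes passed the adjusted p (2.98%), 260 higher and 98 lower. Of the 1325 genes 356 remained, 258 raised and 98 lowered, and all 1325 kept their sign. Libraries of the groups did not overlap for 193 of the 1325 genes (1.61% of the genes tested), 113 of them raised. Whichever single banded library was left out, 329 genes stayed past the adjusted p, 233 raised and 96 lowered. In a fit of the 15 libraries alone, in which the other groups did not set the spread, 2726 genes were called, and 1642 without replicate 1. In males alone (4 against 4) 326 genes were called, and without the males (2 against 5) 54.

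**Figure D1:**
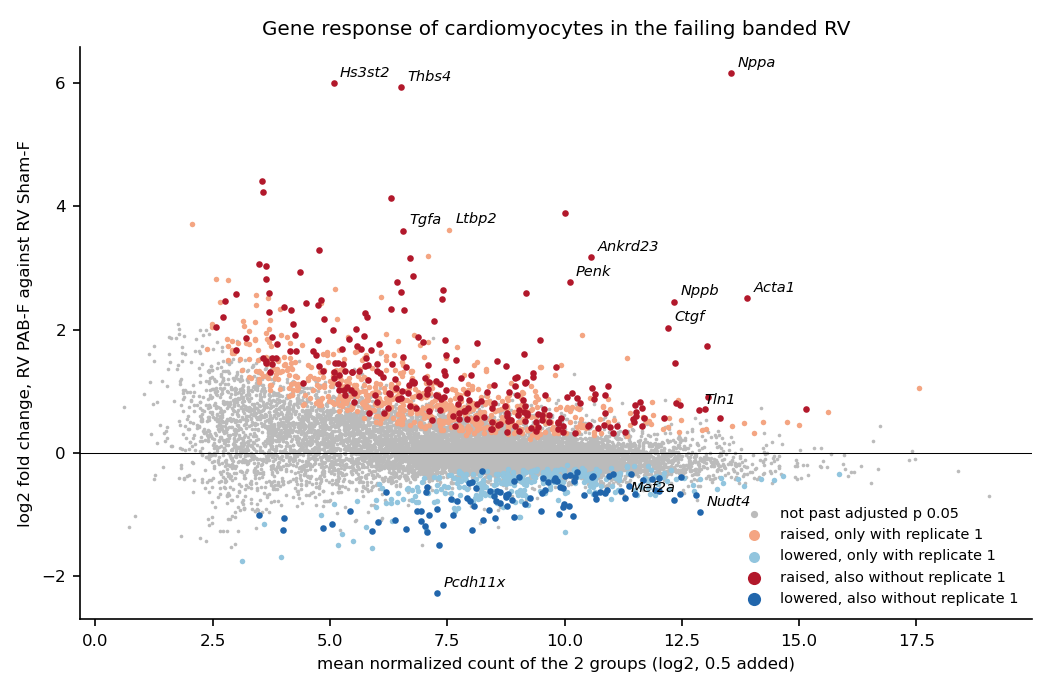
Log2 fold change of RV PAB-F against RV Sham-F (y axis) by mean normalized count of both groups (x axis, log2) for 11954 genes. Red and orange points were raised, dark and light blue points lowered at an adjusted p under 0.05, with the dark shades marking genes that also passed without replicate 1 (258 raised, 98 lowered).

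**Figure D2:**
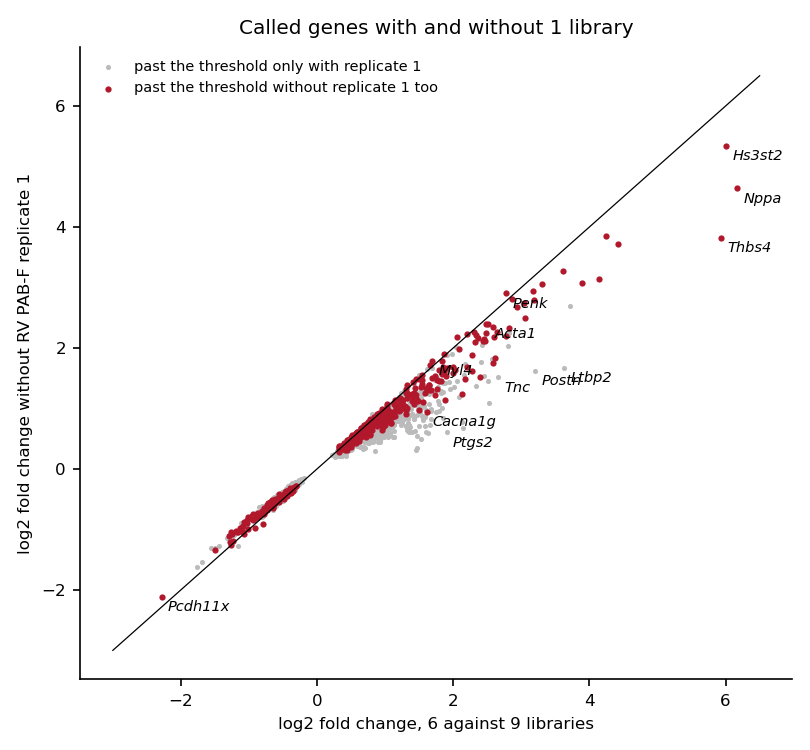
Log2 fold change with 6 (x axis) and with 5 (y axis, without RV PAB-F replicate 1) banded libraries against 9 sham libraries for the 1325 called genes, with the line of equality. Raised genes mostly lie below the line, red points (356 genes) passed in both cases, and all points have the same sign on both axes.

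The banded animals differed from each other in how far their RV was from the shams. Over the 258 genes raised with and without replicate 1, replicate 1 had the highest value for 146 (56.6%) and replicate 2 for 59 (22.9%). Replicates 3 (a male) and 6 (a female) were among the 2 lowest banded libraries for 184 (71.3%) and 200 (77.5%) of these genes, and both together for 151 (58.5%). Over the 98 lowered genes the same animals were among the 2 highest, nearest to the shams, for 68 (69.4%) and 60 (61.2%). Since the genes were called from these libraries, the counts describe the animals and were not tested. Replicate 3 had the second highest share of fibroblast markers in the group (0.171%), and replicate 6 had 0.085%.

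Natriuretic peptides led the response. *Nppa* encodes atrial natriuretic peptide, a hormone of the atria that the ventricles make before birth and under load, and had 909.6 to 100875 normalized counts in RV PAB-F (median 8677) and 127 to 644 in RV Sham-F (median 294). All 6 banded libraries lay above all shams, replicate 1 was the highest by far, and replicates 6 and 3 were the lowest with 909.6 and 1217. The log2 fold change was 6.17 ± 0.60, adjusted p = 3.7e-12, and without replicate 1 it was 4.64, adjusted p = 9.22e-10. *Nppb*, which encodes B-type natriuretic peptide, had 3822 to 17153 normalized counts in RV PAB-F (median 7209) and 1041 to 2616 in RV Sham-F (median 1467). The groups again did not overlap, with a log2 fold change of 2.45 ± 0.23 (adjusted p = 6.26e-13) and 2.15, adjusted p = 8.13e-11 without replicate 1. The clearance receptor of these peptides, *Npr3*, rose as well (1.82 ± 0.34, adjusted p = 0.000105), 4 of 6 banded libraries lying above all shams, and passed without replicate 1 (1.45, adjusted p = 0.00608). These were the 3 of 9 tested genes of the natriuretic system that passed (33.3%, beside 7.66% raised of all genes tested). The median of all 9 was a log2 fold change of 0.10, beside 0.02 over all genes tested.

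**Figure D3:**
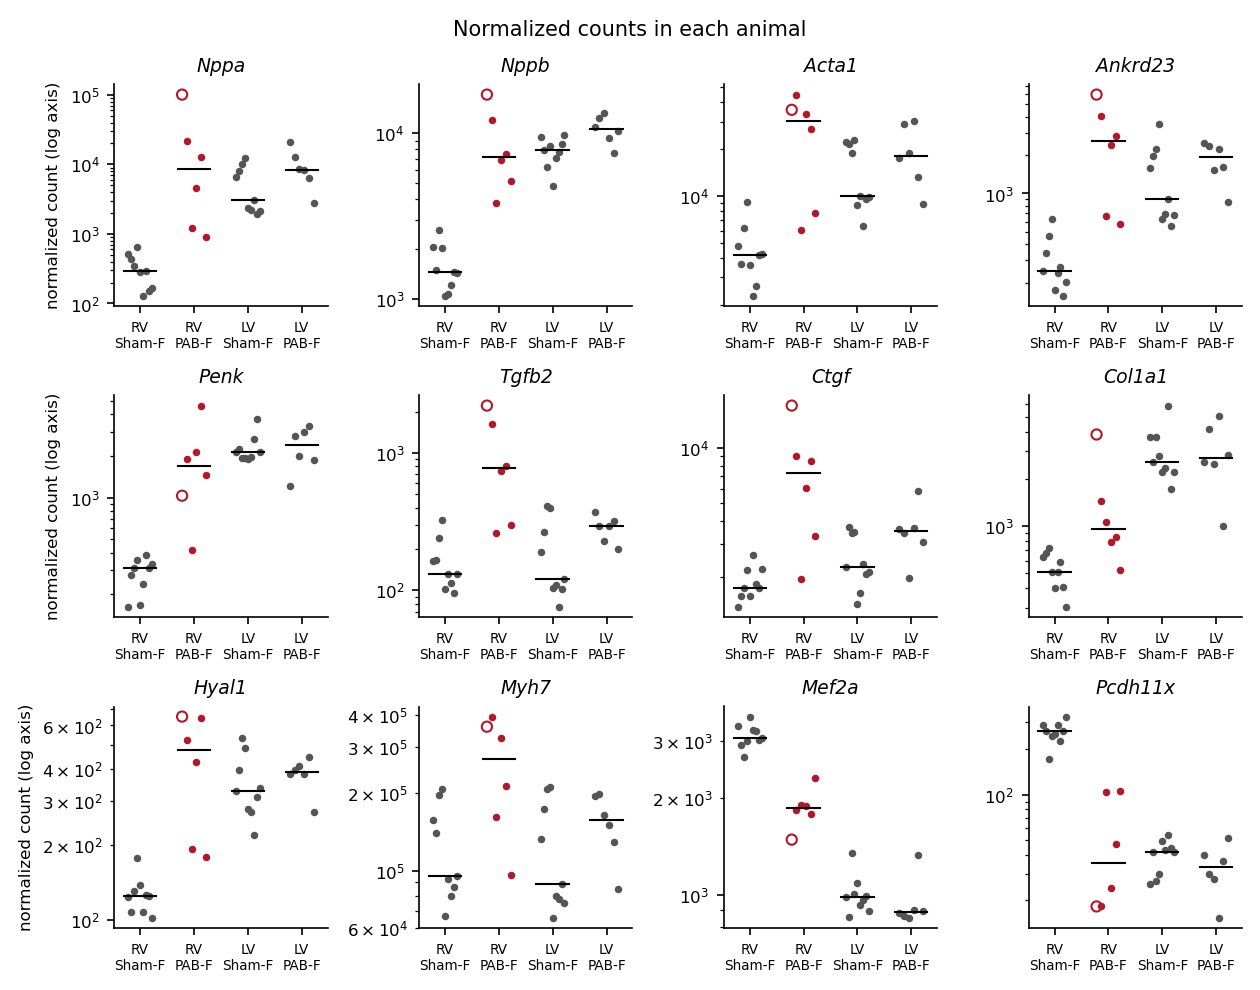
Normalized counts (y axes, log scale) of 12 genes in each animal of RV Sham-F (9), RV PAB-F (6), LV Sham-F (9) and LV PAB-F (6), with a line at the median and an open circle for RV PAB-F replicate 1. *Nppa*, *Nppb*, *Penk* and *Hyal1* do not overlap between the RV groups, and *Mef2a* and *Pcdh11x* lie below all RV shams in each banded animal.

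In the sarcomere single genes rose and fell. *Acta1*, which encodes the skeletal muscle α-actin that the fetal heart uses, had 6089 to 44874 normalized counts in RV PAB-F (median 30330.2) and 2270.0 to 9093 in RV Sham-F (median 4173). Replicates 1, 2, 4 and 5 lay above all shams, whereas replicates 3 and 6 lay within their range, and the change was 2.52 ± 0.36, adjusted p = 5.63e-07 (2.40, adjusted p = 8.04e-06 without replicate 1). Cardiac α-actin, *Actc1*, had a log2 fold change of 0.03 ± 0.16, adjusted p = 0.928. *Myh7*, the slow β-myosin heavy chain, had 96211 to 394306 normalized counts in RV PAB-F (median 269270.0) and 66718 to 207486 in RV Sham-F (median 95387). In this gene 4 of 6 banded libraries lay above all shams (1.05 ± 0.31, adjusted p = 0.0176), and without replicate 1 the change no longer passed (0.93, adjusted p = 0.0982), nor did it without replicate 2 (0.89, adjusted p = 0.0756). The fast α-myosin heavy chain, *Myh6*, did not pass (−0.70 ± 0.27, adjusted p = 0.0802). It did pass as lowered in the Wald test of DESeq2 (−0.73, adjusted p = 0.0491) and with sample quality weights in limma (−0.72, adjusted p = 0.00657). *Mybpc2*, the fast skeletal form of myosin binding protein C, rose by 1.26 ± 0.28 (adjusted p = 0.00131) and by 1.14 without replicate 1 (adjusted p = 0.0139). *Myl4*, an atrial and fetal myosin light chain, rose too (1.69 ± 0.52, adjusted p = 0.0232), with replicate 5 at 207 and the other banded libraries at 16.5 to 36.6 normalized counts. Without replicate 5 it did not pass (0.62, adjusted p = 0.475). *Tnni1*, the slow skeletal troponin I of the fetal heart, fell in all 6 libraries below the shams, from 18.3 to 29.3 normalized counts to 6.41 to 10.9 (−1.26 ± 0.36, adjusted p = 0.0135). Of 11 thick filament genes 3 rose (27.3%) and 1 fell (9.09%), and of 15 thin filament genes 3 rose (20%) and 1 fell (6.67%). Over all genes tested 7.66% rose and 3.42% fell. Without replicate 1 the counts of thick and thin filament genes were 2 and 0, and 1 and 1.

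The promoters of the leading load genes are shown so that the letters upstream of genes that rose together can be compared, and that of *Hs3st2*, which was among the most raised genes, is shown beside them. Sequences are from RefSeq (build GRCr8), in which 9669 of the 11954 tested genes had an entry, and they give the 250 bases before the annotated start on the strand of the gene. They lie at chr5:163711934-163712183 (plus strand, *Nppa*), chr5:163699758-163700007 (plus strand, *Nppb*), chr19:68784195-68784444 (minus strand, *Acta1*), chrX:104019834-104020083 (plus strand, *Tceal7*) and chr1:185387213-185387462 (plus strand, *Hs3st2*). Capitals mark matches, on either strand, to TATAAA, to CATTCC (the MCAT element, bound by TEAD factors) and to the CArG box (bound by serum response factor).
Nppa: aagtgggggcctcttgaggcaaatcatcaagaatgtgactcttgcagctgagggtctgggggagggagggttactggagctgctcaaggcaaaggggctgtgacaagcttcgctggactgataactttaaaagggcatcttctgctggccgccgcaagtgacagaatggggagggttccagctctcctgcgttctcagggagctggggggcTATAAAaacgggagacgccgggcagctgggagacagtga
Nppb: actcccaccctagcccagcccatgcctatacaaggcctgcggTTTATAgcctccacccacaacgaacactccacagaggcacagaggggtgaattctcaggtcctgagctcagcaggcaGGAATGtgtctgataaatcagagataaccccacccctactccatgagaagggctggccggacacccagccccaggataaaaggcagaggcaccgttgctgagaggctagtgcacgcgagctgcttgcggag
Acta1: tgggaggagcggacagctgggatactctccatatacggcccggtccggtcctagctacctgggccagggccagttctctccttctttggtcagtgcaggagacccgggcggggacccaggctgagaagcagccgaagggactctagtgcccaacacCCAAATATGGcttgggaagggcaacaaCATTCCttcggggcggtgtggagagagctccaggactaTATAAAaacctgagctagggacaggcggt
Tceal7: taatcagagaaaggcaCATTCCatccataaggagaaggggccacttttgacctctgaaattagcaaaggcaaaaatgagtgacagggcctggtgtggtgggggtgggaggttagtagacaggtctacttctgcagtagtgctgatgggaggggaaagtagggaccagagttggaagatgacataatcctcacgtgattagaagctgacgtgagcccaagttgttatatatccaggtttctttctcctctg
Hs3st2: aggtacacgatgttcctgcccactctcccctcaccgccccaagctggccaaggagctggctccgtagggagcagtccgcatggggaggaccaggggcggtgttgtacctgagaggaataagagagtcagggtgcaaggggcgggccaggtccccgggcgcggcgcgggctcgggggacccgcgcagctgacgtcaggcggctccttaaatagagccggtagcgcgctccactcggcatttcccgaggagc
*Nppa* held TATAAA at 39 to 34 bases upstream of the start. In *Nppb* the minus strand held CATTCC at 131 to 126 and TATAAA at 208 to 203 bases upstream. *Acta1* held all 3 motifs, the CArG box at 94 to 85, CATTCC at 67 to 62 and TATAAA at 29 to 24 bases upstream, none of which overlapped. *Tceal7*, a gene of the transcription elongation factor A-like family that rose in all 6 libraries, held CATTCC at 234 to 229 bases upstream, and *Hs3st2* held none of the 3 motifs. *Penk* had no entry. In windows of the same length CATTCC was present in 10% of all 9669 promoters, 11.9% of 722 promoters of raised genes, 9.61% of 333 promoters of lowered genes and 15% of 207 promoters of genes raised without replicate 1 too. The CArG box was present in 1.12%, 1.25%, 2.1% and 2.42%, and TATAAA in 6.86%, 8.31%, 7.21% and 10.6%. A match is a run of letters and not a known binding site.

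Stretch-responsive ankyrin repeat and LIM proteins of the sarcomere and nucleus were led by *Ankrd23*, an ankyrin repeat protein at the I-band of titin. It had 575 to 5959.8 normalized counts in RV PAB-F (median 2596) and 156 to 629 in RV Sham-F (median 247). Replicate 6 lay within the range of the shams and the other 5 above it, with a log2 fold change of 3.18 ± 0.38 (adjusted p = 3.17e-09) and 2.80, adjusted p = 2.11e-07 without replicate 1. Its relative *Ankrd1* rose less (0.66 ± 0.22, adjusted p = 0.0418) and did not pass without replicate 1 (0.63, adjusted p = 0.141), 2, 4 or 5 (adjusted p = 0.102, 0.0783 and 0.0612 for the latter 3). Of 9 genes of this list 4 rose (44.4%, beside 7.66% of all genes tested) and 1, *Fhl2*, fell (11.1%, beside 3.42%). *Fhl2* changed by −0.45 ± 0.14 (adjusted p = 0.0335) and lost the call without replicate 2 or 5 too (adjusted p = 0.0909 and 0.0558). Without replicate 1 *Ankrd23* alone passed. At the cell border, *Tln1*, the talin that ties integrins to actin, rose from 4946 to 6356 normalized counts to 5654 to 11220.2 (0.69 ± 0.10, adjusted p = 2.05e-06). The filamin *Flnc*, which links the sarcomere to the membrane, rose as well (0.70 ± 0.18, adjusted p = 0.00551), and both passed without replicate 1.

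Among 18 calcium cycling genes 1 rose and 1 fell (5.56% each, beside 7.66% and 3.42% of all genes tested). The calcium pump *Atp2a2* (−0.30 ± 0.17, adjusted p = 0.257) and the release channel *Ryr2* (−0.11 ± 0.17, adjusted p = 0.708) did not pass. *Casq1*, the skeletal form of the calcium store protein calsequestrin, rose (0.64 ± 0.17, adjusted p = 0.00898), also without replicate 1 (0.63, adjusted p = 0.035). Of 28 further channel genes 3 rose (10.7%) and 2 fell (7.14%), and without replicate 1 these were 1 and 0. *Cacna1g*, a T-type calcium channel of the fetal ventricle, had 319 to 2419 normalized counts in RV PAB-F (median 562) and 198 to 348 in RV Sham-F (median 263). Of the banded libraries 5 lay above all shams, and replicate 1 was far above the others, so that the change was 1.61 ± 0.23, adjusted p = 5.01e-07 with it and 0.95, adjusted p = 0.00146 without it. The 2-pore potassium channel *Kcnk2*, which opens on stretch and is not among the 28, fell below the shams in all 6 libraries (−1.07 ± 0.24, adjusted p = 0.00131, and −0.88, adjusted p = 0.0177 without replicate 1). The pacemaker channel *Hcn2* (0.82 ± 0.26, adjusted p = 0.0264) and the muscarinic potassium channel *Kcnj3* (−0.56 ± 0.17, adjusted p = 0.0177) did not pass without replicate 1 (adjusted p = 0.0765 and 0.152 without it). The 3 α1-adrenergic receptors *Adra1a*, *Adra1b* and *Adra1d* fell by 0.43, 0.46 and 0.74 on the log2 scale (adjusted p = 0.0209, 0.0318 and 0.0188). They were the lowered genes among 20 of adrenergic and cAMP signalling (15%), of which 0 passed without replicate 1. Without replicate 2 the adjusted p of these 3 receptors was 0.0570, 0.0746 and 0.0592 and that of *Hcn2* 0.0667. Of these, *Hcn2* was lost without replicate 4 (0.0751) or 5 (0.0546), and *Adra1b* and *Adra1d* without replicate 5 (0.0670 and 0.0632).

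Genes of energy metabolism were mostly lower by small amounts. Outside this field, cytosolic ribosomal proteins (median log2 fold change −0.18) and atrophy ligases and proteasome genes (−0.19) had small negative medians too. Of 36 mitochondrial carriers 16 had a log2 fold change above 0 (median −0.07). Of 72 tested nuclear genes of oxidative phosphorylation 0 rose and 4 fell (5.56%, beside 3.42% of all genes tested). Their median log2 fold change was −0.27, beside 0.02 over all genes tested, and all 72 values were below 0. Of 38 genes of fatty acid uptake and oxidation 0 rose and 7 fell (18.4%, median −0.31), and 2 fell without replicate 1 (median −0.22). Among the 7 were *Etfb*, which passes electrons from fatty acid oxidation to the respiratory chain (−0.55 ± 0.14, adjusted p = 0.00477), and *Rxrg*, a nuclear receptor partner of the PPAR factors (−0.67 ± 0.16, adjusted p = 0.00318). Both passed without replicate 1 (−0.49, adjusted p = 0.0435 and −0.51, adjusted p = 0.0461), whereas 0 of the 72 oxidative phosphorylation genes did (median −0.23). *Cpt1b*, the entry step of fatty acids into mitochondria, did not pass (−0.06 ± 0.12, adjusted p = 0.772). In glycolysis *Eno3*, the muscle enolase, fell from 5293 to 8482 normalized counts to 2099 to 6204 (−0.77 ± 0.19, adjusted p = 0.00355, and −0.65, adjusted p = 0.0431 without replicate 1). The glucose transporters *Slc2a1* (0.39 ± 0.15, adjusted p = 0.0687) and *Slc2a4* (0.17 ± 0.17, adjusted p = 0.543) did not pass, although *Slc2a1* passed without replicate 4 or 6 (adjusted p = 0.0475 and 0.0400). *Ppp1r3d*, which targets a phosphatase to glycogen, fell below the shams in all 6 libraries (−0.76 ± 0.11, adjusted p = 1.54e-06, and −0.67, adjusted p = 7.03e-05 without replicate 1).

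Matrix genes were raised, and the size of the rise depended on replicate 1. Of 14 collagen genes 7 rose (50%) and 0 fell, and of 7 small proteoglycans and their kin 4 rose (57.1%). Of 26 matricellular proteins 13 rose (50%), of 20 collagen-modifying proteins 9 rose (45%) and of 20 metalloproteinases and inhibitors 6 rose (30%). Over all genes tested 7.66% rose. Without replicate 1 the numbers were 1, 0, 5, 4 and 1, beside 260 raised of 12015 genes. *Col1a1*, a chain of type I collagen, had 522 to 3845 normalized counts in RV PAB-F (median 957) and 302 to 725 in RV Sham-F (median 509). Of the 6 banded libraries 5 lay above all shams and replicate 1 was the highest by far, with a log2 fold change of 1.43 ± 0.34 (adjusted p = 0.00334) and 0.82, adjusted p = 0.181 without it. *Col3a1* (1.53 ± 0.35, adjusted p = 0.00169), *Postn*, the periostin of activated fibroblasts (3.20 ± 0.58, adjusted p = 7.35e-05), and *Tnc*, tenascin C of injured tissue (2.66 ± 0.68, adjusted p = 0.0063), also lost the call (adjusted p = 0.155, 0.0828 and 0.25 without replicate 1). *Thbs4*, a thrombospondin of stressed hearts, was near the limit of detection in the shams, with 22 raw counts over 9 libraries and 881 over the 6 banded ones. The ratio of the summed counts per depth was 53.9 (95% counting interval 35.4 to 86.5), and 15.1 (9.72 to 24.6) without replicate 1. The intervals cover counting error alone.

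Among matrix genes that kept the call, *Ctgf*, a matricellular protein that YAP and TGFβ induce, had 1939 to 16944 normalized counts in RV PAB-F (median 7277) and 1364 to 2622 in RV Sham-F (median 1742). Replicate 3 lay within the range of the shams and the other 5 above it, with a log2 fold change of 2.03 ± 0.26 (adjusted p = 1.74e-08) and 1.63, adjusted p = 5.03e-06 without replicate 1. *Ecm1* (1.40 ± 0.18, adjusted p = 5.64e-08), an extracellular matrix protein, and *Cilp*, a matrix protein that binds TGFβ (2.62 ± 0.45, adjusted p = 2.34e-05), passed in both cases (1.12, adjusted p = 1.42e-05 and 1.83, adjusted p = 0.00703 without replicate 1). Proteins that act on collagen or its precursor were also raised with and without that library. They were *Tgm2*, a transglutaminase (1.45 ± 0.20, adjusted p = 2.53e-07), *Pcolce*, an enhancer of procollagen cleavage with no overlap between the groups (1.43 ± 0.25, adjusted p = 3.24e-05), the lysyl hydroxylase *Plod2* (1.50 ± 0.28, adjusted p = 0.000118) and the lysyl oxidase-like enzyme *Loxl2* (1.14 ± 0.23, adjusted p = 0.000368). *Lox* itself did not pass (0.77 ± 0.33, adjusted p = 0.112). *Fap*, a surface protease of activated fibroblasts, rose in all 6 libraries above the shams (1.76 ± 0.27, adjusted p = 2.49e-06, and 1.32, adjusted p = 0.000759 without replicate 1). *Col8a1* was the collagen that passed in both cases (2.13 ± 0.38, adjusted p = 4.84e-05 and 1.25, adjusted p = 0.0343).

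Markers of fibroblasts, macrophages and endothelial cells all had log2 fold changes above 0, and most of them did not pass. Over all genes tested 7.66% rose, 3.42% fell, and 6232 of 11954 had a log2 fold change above 0. Of 13 fibroblast markers 5 rose (*Mfap5*, *Pi16*, *Ddr2*, *Mmp2* and *Col1a1*, 38.5%) and 0 fell, and all 13 had a log2 fold change above 0. Their defining genes *Pdgfra* (0.77 ± 0.31, adjusted p = 0.0836) and *Tcf21* (0.60 ± 0.36, adjusted p = 0.274) did not pass. *Pdgfra* passed without replicate 4 (0.89, adjusted p = 0.0462) and in the fit of the 15 libraries alone (adjusted p = 0.0339). *Mfap5* and *Ddr2* passed without replicate 1 (1.61, adjusted p = 0.0136 and 1.02, adjusted p = 0.00237). Of 14 macrophage markers 4 rose (*Csf1r*, *Mrc1*, *Adgre1* and *Lyz2*, 28.6%), all 14 had a log2 fold change above 0, and 0 passed without replicate 1. *Csf1r*, *Mrc1* and *Lyz2* did not pass without replicate 2 either (adjusted p = 0.0559, 0.0516 and 0.0634). Of 12 endothelial markers 2 rose (16.7%), with *Pecam1* at 0.80 ± 0.20, adjusted p = 0.00554 (0.74, adjusted p = 0.0368 without replicate 1). Of 10 mural cell markers 2 rose (20%) and of 4 mesothelial and epicardial markers 1 rose (25%). Of 6 Schwann cell markers 2 rose (33.3%, median −0.28). Of the mural, mesothelial, epicardial and Schwann cell markers 0 passed without replicate 1. Of 3 lymphocyte and 4 red blood cell markers 0 passed in edgeR. *Pdgfra*, *Tcf21*, *Csf1r* and *Pecam1* were detected in every one of the 15 libraries. *Mmp2*, *Col1a1*, *Mfap5* and *Dcn* of the fibroblast list are also in the matrix lists. The part of other cells in the matrix results was not tested.

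**Figure D4:**
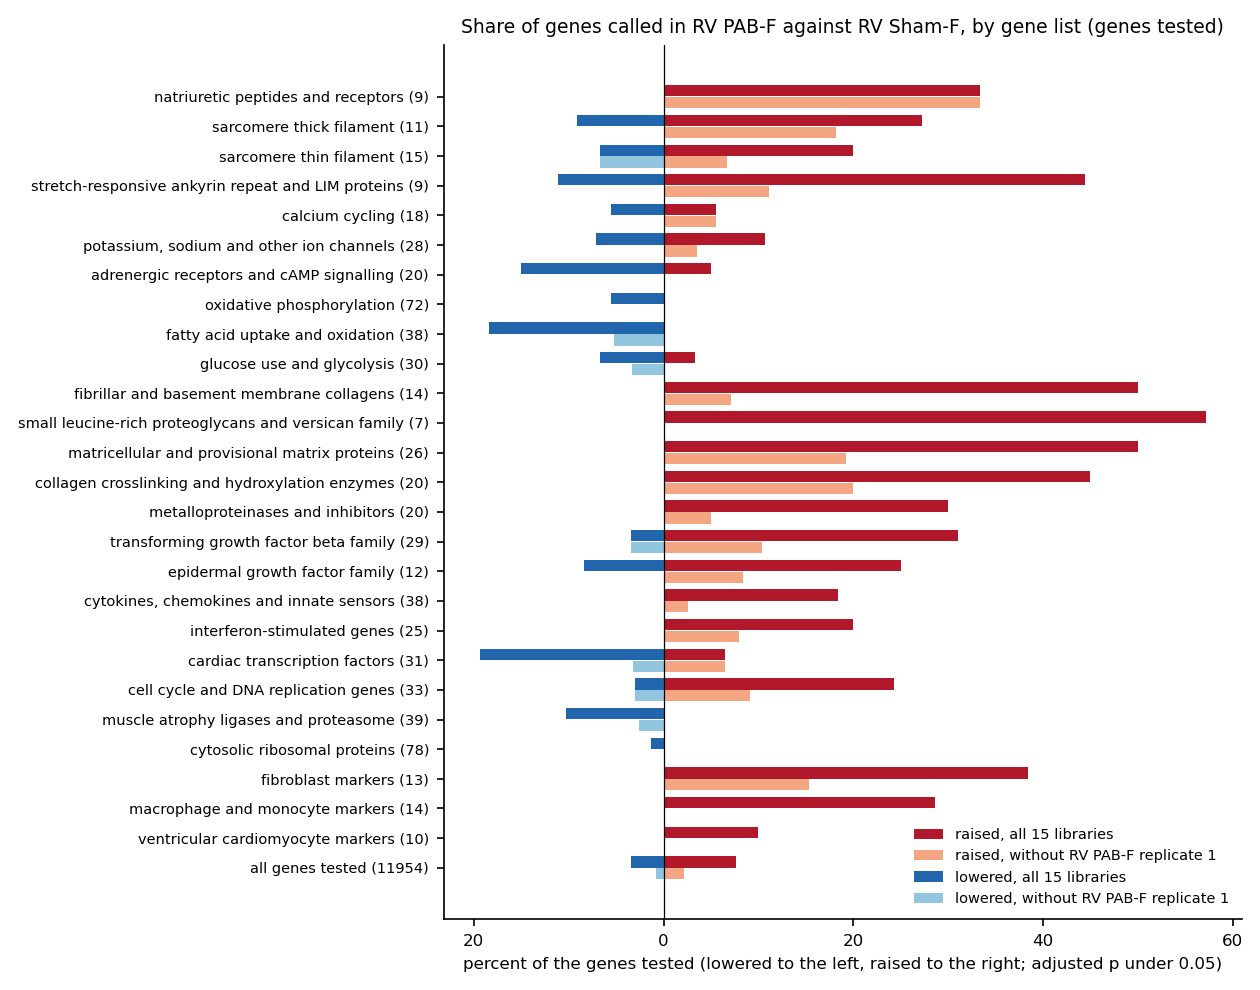
Percent of the tested genes of each list (number in brackets) that were raised (to the right) or lowered (to the left) at an adjusted p under 0.05 in banded against sham RV. Dark bars are for all 15 libraries and light bars without RV PAB-F replicate 1, and the bottom pair gives all 11954 genes (7.66% raised, 3.42% lowered).

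Secreted signals and their receptors changed in several families. Of 29 genes of the TGFβ family 9 rose (31%) and 1 fell (3.45%), beside 7.66% and 3.42% of all genes tested. Without replicate 1 these numbers were 3 and 1, beside 260 and 98 of 12015 genes. *Tgfb2*, a ligand, had 261 to 2210.2 normalized counts in RV PAB-F (median 771) and 96.6 to 323 in RV Sham-F (median 132). Replicates 1, 2, 4 and 5 lay above all shams (2.59 ± 0.36, adjusted p = 2.92e-07, and 2.19, adjusted p = 2.91e-05 without replicate 1). *Fstl3*, an extracellular inhibitor of activins, rose (1.43 ± 0.22, adjusted p = 2.57e-06, and 1.18, adjusted p = 0.000328 without replicate 1), as did the distant family member and stress hormone *Gdf15* (1.83 ± 0.38, adjusted p = 0.000615 and 1.79, adjusted p = 0.00364). The co-receptor *Tgfbr3* fell below the shams in all 6 libraries by a small amount (−0.36 ± 0.07, adjusted p = 0.000419 and −0.34, adjusted p = 0.00403). *Ltbp2*, which binds to matrix fibrils, had 1629 normalized counts in replicate 1 and 11.3 to 218 in the other banded libraries, and lost the call without it (3.63 ± 0.65, adjusted p = 6.16e-05 against 1.67, adjusted p = 0.12).

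Of 12 genes of the epidermal growth factor family 3 rose (25%) and 1 fell (8.33%), beside 7.66% and 3.42% of all genes tested. Without replicate 1, 1 rose. The ligand *Tgfa*, which acts on the EGF receptor, was raised from 2.47 to 23.2 normalized counts in RV Sham-F (median 13.2) to 16.5 to 353 in RV PAB-F (median 177). Replicates 3 and 6 lay within the range of the shams and the other 4 above it, with a log2 fold change of 3.61 ± 0.45 (adjusted p = 1.29e-08) and 3.28, adjusted p = 4.68e-07 without replicate 1. The ligand *Hbegf* rose and the neuregulin receptor *Erbb4* fell (0.70 ± 0.17, adjusted p = 0.00291 and −0.65 ± 0.19, adjusted p = 0.0194), and neither passed without replicate 1 (adjusted p = 0.0521 and 0.146).

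*Penk*, the precursor of the enkephalin opioid peptides, had 416 to 4630.1 normalized counts in RV PAB-F (median 1686) and 161 to 387 in RV Sham-F (median 310.4). All 6 banded libraries lay above all shams, the highest being replicate 5 and the lowest replicate 3. Its change was as large without replicate 1, which at 1033 was among the lower ones (2.78 ± 0.32, adjusted p = 1.98e-09 with it and 2.90, adjusted p = 1.84e-09 without it). *Adm*, the vasodilator adrenomedullin, rose (0.90 ± 0.23, adjusted p = 0.00625 and 0.83, adjusted p = 0.0405), and the endothelial growth factor *Vegfa* did not pass (−0.09 ± 0.21, adjusted p = 0.814).

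Of 38 cytokines, chemokines and sensors 7 rose (18.4%, beside 7.66% of all genes tested) and 0 fell. A log2 fold change above 0 was found for 36 of them, beside 6232 of 11954 genes. Without replicate 1 the number raised was 1. It was the eosinophil chemokine *Ccl11* (4.24 ± 0.71, adjusted p = 1.83e-05 and 3.85, adjusted p = 0.000394). It rested on 8 raw counts over the shams against 125, a ratio per depth of 21.05 (95% counting interval 10.4 to 49.8). Interleukin-1β, *Il1b*, had 512 normalized counts in replicate 1 and 42.2 to 83.9 in the other banded libraries, within 12.6 to 106 in RV Sham-F, and did not pass without replicate 1 (0.34, adjusted p = 0.75). Cyclooxygenase 2, *Ptgs2*, likewise had 698 in replicate 1 (1.90 ± 0.47, adjusted p = 0.00467 against 0.60, adjusted p = 0.511). Prostaglandin D synthase, *Ptgds*, was raised in both cases (1.43 ± 0.27, adjusted p = 0.000131 and 1.22, adjusted p = 0.00434). Of 25 interferon-stimulated genes 5 rose (20%) and 0 fell, all 25 having a log2 fold change above 0, and 2 rose without replicate 1. *Rsad2*, the antiviral enzyme viperin, had 120.1 to 274 normalized counts in RV PAB-F (median 163) and 50.7 to 117 in RV Sham-F (median 74.3). Its log2 fold change was 1.21 ± 0.29, adjusted p = 0.00389. It and its genomic neighbour *Cmpk2* (0.87 ± 0.25, adjusted p = 0.0166), a mitochondrial nucleotide kinase, showed no overlap between the groups and passed without replicate 1 (1.15, adjusted p = 0.0225 and 0.91, adjusted p = 0.043). *Cmpk2* did not pass without replicate 2 (0.78, adjusted p = 0.0620).

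Among genes of transcription and signalling control, *Rcan1*, an inhibitor and target of calcineurin, rose (0.91 ± 0.18, adjusted p = 0.000262, and 0.92, adjusted p = 0.00117 without replicate 1). The transcription factor *Mef2a* had 1487 to 2299 normalized counts in RV PAB-F (median 1869) and 2669 to 3572 in RV Sham-F (median 3071). All 6 banded libraries lay below all shams (−0.74 ± 0.15, adjusted p = 0.000538, and −0.68, adjusted p = 0.00703 without replicate 1), and so did those of *Prkd1*, a kinase that acts on MEF2 through class II histone deacetylases (−0.62 ± 0.13, adjusted p = 0.00107 and −0.55, adjusted p = 0.0144). Of 31 cardiac transcription factors 2 rose (6.45%) and 6 fell (19.35%), beside 7.66% and 3.42% of all genes tested. Without replicate 1 these numbers were 2 and 1. *Hopx*, a homeodomain protein without DNA binding that restrains serum response factor, rose in all 6 libraries above the shams (1.22 ± 0.24, adjusted p = 0.000271 and 1.07, adjusted p = 0.00601). *Prdm1*, a repressor, rose in 5 of 6 (1.29 ± 0.29, adjusted p = 0.00143 and 1.03, adjusted p = 0.0345). *Zfpm2*, a GATA4 cofactor, fell below all shams in 6 of 6 (−0.61 ± 0.14, adjusted p = 0.00236 and −0.56, adjusted p = 0.0234), whereas *Gata4* did not pass (−0.05 ± 0.12, adjusted p = 0.81). *Tbx5*, *Irx3* and the Hippo effector *Yap1* fell (−0.53 ± 0.15, adjusted p = 0.0149, −0.68 ± 0.23, adjusted p = 0.0381 and −0.35 ± 0.09, adjusted p = 0.00743), with an adjusted p of 0.138, 0.193 and 0.0781 without replicate 1. The call of *Irx3* was lost without replicate 2, 3 or 5 as well (adjusted p = 0.139, 0.0651 and 0.0775). The immediate early gene *Fos* fell from 5833 to 9034 normalized counts to 2867 to 6278 (−0.67 ± 0.16, adjusted p = 0.00296 and −0.63, adjusted p = 0.0235).

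Of 33 cell cycle and replication genes 8 rose (24.2%) and 1 fell (3.03%), beside 7.66% and 3.42% of all genes tested. Without replicate 1 these numbers were 3 and 1. *Ccnd2*, cyclin D2, which drives growth and cell cycle entry, rose in 5 of 6 libraries above the shams (0.82 ± 0.16, adjusted p = 0.000189 and 0.76, adjusted p = 0.00296). *E2f1*, a factor of cell cycle entry, rose from a low level (1.65 ± 0.34, adjusted p = 0.000595 and 1.31, adjusted p = 0.0216). Thymidylate synthase, *Tyms*, fell (−0.64 ± 0.18, adjusted p = 0.0115 and −0.63, adjusted p = 0.0473). The proliferation marker *Mki67* did not pass (1.15 ± 0.45, adjusted p = 0.0819), although it did in the fit of the 15 libraries alone (adjusted p = 0.0146). Of 29 genes of the list of *Nox4* and antioxidant enzymes 3 rose (10.3%) and 1 fell, with a median of −0.02, and 2 rose without replicate 1. These were the NADPH oxidase *Nox4*, with no overlap between the groups (1.90 ± 0.32, adjusted p = 2.03e-05 and 1.54, adjusted p = 0.00188), and the mitochondrial monoamine oxidase *Maoa* (1.74 ± 0.37, adjusted p = 0.000981 and 1.53, adjusted p = 0.0136). Of 39 genes of muscle atrophy ligases and the proteasome 0 rose and 4 fell (1 without replicate 1), of which *Psme1*, a proteasome activator, lay below all shams in 6 of 6 libraries (−0.61 ± 0.12, adjusted p = 0.000395 and −0.51, adjusted p = 0.00984). The atrophy ligases *Fbxo32* (−0.40 ± 0.14, adjusted p = 0.0496) and *Trim63* (−0.28 ± 0.18, adjusted p = 0.313) are among the 39, and *Fbxo32* did not pass without replicate 1 (adjusted p = 0.22), nor without replicate 2, 3 or 5 (adjusted p = 0.114, 0.0719 and 0.0695). Heat shock genes *Hspa1a* (0.42 ± 0.29, adjusted p = 0.35) and *Hspb1* (0.11 ± 0.22, adjusted p = 0.785) and the stress factor *Ddit3* (−0.38 ± 0.24, adjusted p = 0.295) did not pass. In the fit of the 15 libraries alone *Hspa1a* did (adjusted p = 0.0462).

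Further large changes without overlap between the groups were in genes that no list above holds. *Hs3st2*, a heparan sulfate sulfotransferase best known from the brain, had 7 raw counts over the 9 shams, at most 2 in each, and 368 over the 6 banded libraries. The ratio per depth was 70.8 (95% counting interval 34.03 to 177), and 49.2 (23.5 to 124) without replicate 1. *Tceal7* rose from 11.4 to 41.1 normalized counts to 44.3 to 325 (3.17 ± 0.44, adjusted p = 2.42e-07 and 2.94, adjusted p = 5.43e-06). *Akip1*, a binding partner of protein kinase A, had 64.9 to 634 normalized counts in RV PAB-F (median 277) and 36.6 to 63.7 in RV Sham-F (median 42.1). Its change was 2.64 ± 0.30, adjusted p = 9.65e-10, and 2.27, adjusted p = 1.09e-07 without replicate 1. *Hyal1*, a hyaluronidase that breaks down hyaluronan in lysosomes, had 178 to 651 normalized counts in RV PAB-F (median 477) and 101 to 177 in RV Sham-F (median 124). Replicates 3 and 6 were just above the highest sham, with a log2 fold change of 1.79 ± 0.21 (adjusted p = 1.98e-09) and 1.64, adjusted p = 1.09e-07 without replicate 1. The deubiquitinase *Uchl1* (1.99 ± 0.40, adjusted p = 0.000304), the secreted semaphorin *Sema3b* (1.15 ± 0.15, adjusted p = 1.88e-08) and *Lrrc16a*, a regulator of actin capping (1.49 ± 0.19, adjusted p = 3.45e-08), also rose in all 6 libraries above the shams and passed without replicate 1.

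Lowered genes without overlap were led by *Pcdh11x*, a protocadherin, which had 18.2 to 106 normalized counts in RV PAB-F (median 35.6) and 171 to 328 in RV Sham-F (median 262). Replicates 3 and 6 were the highest of the banded libraries, at 104 and 106 normalized counts, and still below all shams (−2.28 ± 0.33, adjusted p = 5.01e-07 and −2.12, adjusted p = 1.47e-05 without replicate 1). The others included *Lrrc7* (−1.50 ± 0.29, adjusted p = 0.000202) and *Dlgap1* (−1.02 ± 0.18, adjusted p = 3.83e-05), scaffolds of the postsynaptic density, *Gabrb2* (−1.26 ± 0.27, adjusted p = 0.000842), a GABA receptor subunit, and *Lsamp* (−1.004 ± 0.18, adjusted p = 7.73e-05), an adhesion protein, each of which passed without replicate 1. *Asb4*, a ubiquitin ligase adaptor (−1.24 ± 0.27, adjusted p = 0.000989), *Nudt4*, a phosphohydrolase (−0.96 ± 0.19, adjusted p = 0.000241), and *Car2*, carbonic anhydrase 2 (−0.75 ± 0.16, adjusted p = 0.000994), fell below all shams in 6 of 6 libraries as well, and passed without it.

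The LV of the same animals gives a comparison within the heart. Between LV PAB-F and LV Sham-F 0 genes passed the adjusted p in edgeR, with 454 of 11954 at an unadjusted p under 0.05. The difference of the responses (RV minus LV) passed for 42 genes (0.351%), with a larger value in the RV for 39. This fit did not take into account that RV and LV libraries share animals. With the animal as a block 349 genes passed. With no block and without RV PAB-F replicate 1 the difference passed for 7 genes. These were *Nppa*, *Nppb*, *Ankrd23*, *Penk*, *Hyal1*, *Sema3b* and *Sypl2* (the last was named after its values were seen). With the block and without the animal of replicate 1 it passed for 26 genes. *Nppa* changed by 0.87 ± 0.52 in the LV, and the difference was 5.30 (adjusted p = 5.02e-05, and 3.77 with adjusted p = 0.00335 without replicate 1). *Penk* changed by 0.05 ± 0.32 in the LV, with a difference of 2.73 (adjusted p = 0.00034, and 2.86 with adjusted p = 0.000464). The LV of shams had more *Penk* RNA than their RV, with 2283 ± 577 normalized counts (SD, n = 9) beside 282 ± 79.6 (SD, n = 9), and RV PAB-F had 1930.2 ± 1459 (SD, n = 6). RV and LV libraries of Sham-F differed in 8876 of 11954 genes, against 2510 between the ventricles of Sham-H, so that levels across ventricles at the failing stage hold a large difference that both conditions share. Fibroblast markers took a median of 0.238% of counts in LV Sham-F and 0.0585% in RV Sham-F, and endothelial markers 0.422% and 0.109%. The part of other cells in the comparison with the LV was not tested. Of the 3 genes with the lower response in the RV *Pcdh11x* had the largest difference, with −0.24 ± 0.33 in the LV and a difference of −2.05 (adjusted p = 0.0181, 0.103 without replicate 1, and 0.0444 with the animal as a block and without that animal).

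**Figure D5:**
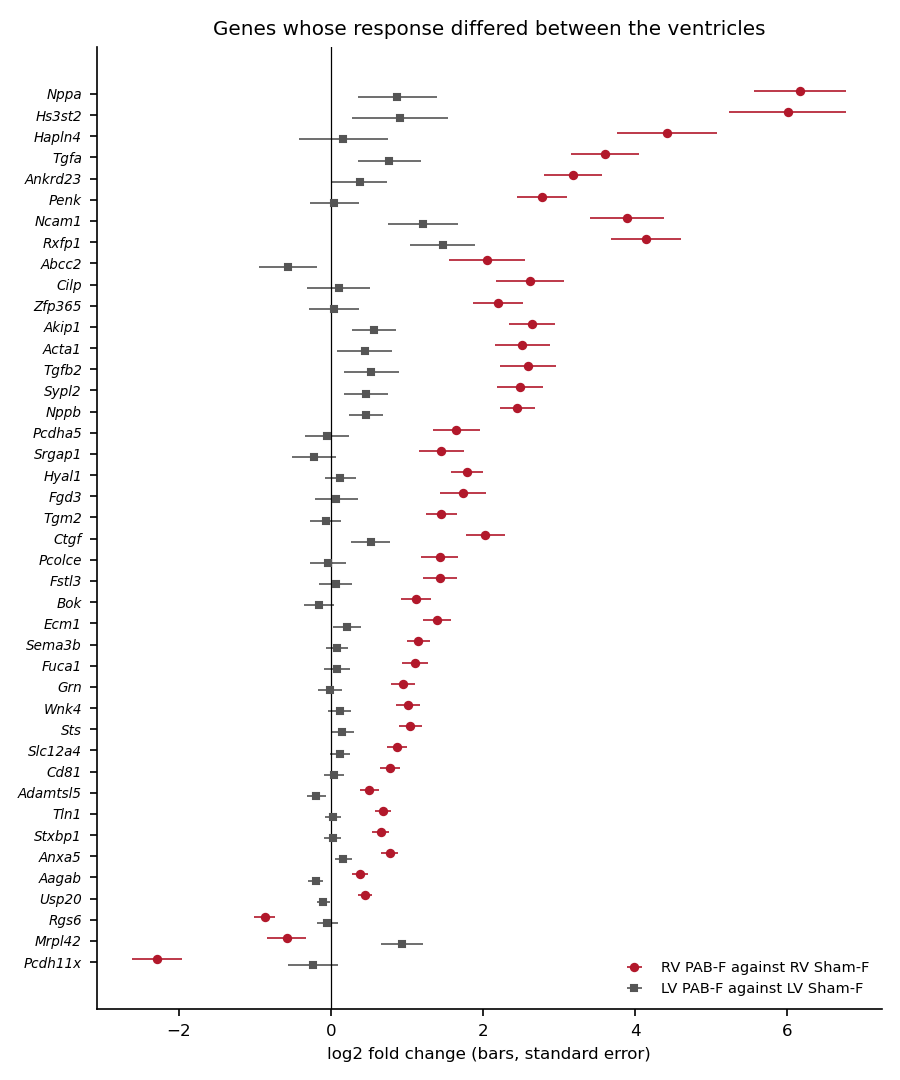
Log2 fold change of PAB-F against Sham-F in the RV (red circles) and in the LV of the same animals (grey squares) for 42 genes, with bars of ± 1 SE. Their response differed between the ventricles at an adjusted p under 0.05 in the fit with no block for the animal. In 39 genes the RV value lies to the right of the LV value.

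At the compensated stage RV PAB-H differed from RV Sham-H in 538 genes, 467 of them raised. These animals and shams are other ones than those at failure. The difference between the stages (failing minus compensated response) passed for 0 genes in edgeR and in DESeq2, with 177 genes at an unadjusted p under 0.05 in edgeR, so that no gene can be called particular to failure from these data. *Nppa* changed by 3.28 ± 0.60 at the compensated stage and by 6.17 ± 0.60 at failure, *Nppb* by 1.21 ± 0.24 and 2.45 ± 0.23, *Tgfa* by 1.30 ± 0.52 and 3.61 ± 0.45, and *Penk* by 2.23 ± 0.35 and 2.78 ± 0.32. *Pcdh11x* changed by −1.60 ± 0.33 and −2.28 ± 0.33. Of the 227 genes that met the criteria at failure, 122 had an adjusted p under 0.05 at the compensated stage.

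RV PAB-F was also compared directly with RV AOB-F, in which the heart failed while the LV carried the load. They differed in 497 genes (4.16%), 295 higher and 202 lower in RV PAB-F, and in 80 without RV PAB-F replicate 1. *Nppb* was higher in RV PAB-F by 1.57 ± 0.24 (adjusted p = 3.49e-05, and 1.26 with adjusted p = 0.00203 without replicate 1). *Fap* was higher by 1.89 ± 0.29 and *Hyal1* by 1.34 ± 0.22. *Unc13a*, a priming factor of vesicle release, was higher by 2.41 ± 0.38, and *Ppp1r3d* and *Car2* were lower by 0.80 ± 0.12 and 1.04 ± 0.17. These genes passed without replicate 1 (adjusted p = 0.00203, 0.00203, 0.00133, 0.00117 and 0.00203). *Penk* (1.89 ± 0.34) and *Acta1* (1.64 ± 0.39) were higher in both cases too. *Nppa* (3.35 ± 0.59), *Npr3* (1.63 ± 0.36), *Ankrd23* (1.62 ± 0.39) and *Tgfb2* (1.49 ± 0.38) were higher with all libraries and lost the call without replicate 1 (adjusted p = 0.0713, 0.0763, 0.123 and 0.176). Raised against RV Sham-F but not passing between RV PAB-F and RV AOB-F were *Myh7* (0.02 ± 0.33, adjusted p = 0.979), *Mybpc2* (0.26 ± 0.29, adjusted p = 0.64) and *Myl4* (−0.09 ± 0.52, adjusted p = 0.949). Between RV AOB-F and the same RV Sham-F libraries 8 genes differed, with *Nppb* at 0.89 ± 0.22 and *Hyal1* at 0.45 ± 0.21. In that contrast macrophage markers had a median log2 fold change of 0.89 (0.99 in RV PAB-F), and fibroblast markers one of 0.27 (0.79 in RV PAB-F). The contrasts of RV PAB-F and RV AOB-F with RV Sham-F share these sham libraries.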

How the data were processed

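Cardiomyocyte RNA of both ventricles of 41 rats (82 libraries) was depleted of ribosomal RNA and sequenced in pairs of reads. The authors trimmed reads with Trim Galore, aligned them with STAR to the rat genome (Rnor6.0, UCSC annotation) and counted them per gene with featureCounts, leaving out reads over several genes. Strand use in the counting was not given in the sources used here, so that it is not known whether reads of antisense genes were told apart. They deposited raw counts (17337 genes), normalized counts, which are a signal made by the authors by dividing counts by size factors of DESeq2 1.28.1, and FPKM. Only raw counts were tested. The deposited FPKM values gave gene lengths, and 1773 genes had no count.

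Genes were filtered with filterByExpr (11954 tested), scaled with TMM factors and fitted with edgeR 4.0.16 (quasi-likelihood, R 4.3.3) as 12 groups over all 82 libraries. Adjusted p under 0.05 was the threshold, and the study's criteria the second one. Normalized counts here are raw counts per effective library size times 13279120, and log2 CPM had a prior count of 2. Libraries are separate animals, numbered by the labels. Libraries of RV and LV with a shared number and condition are 1 animal (median r of deviations 0.21 in PAB-F and 0.199 in Sham-F, against −0.0503 and −0.047 for other animals). Alternatives used limma 3.58.1 and DESeq2 1.42.0, other scaling, filters, libraries and covariates. Fits of the 15 libraries alone without replicate 1, and of the animal block without its animal, were added after seeing the data. Genes named are the key genes and up to 4 members of smallest p of each gene list, up to 12 raised and 12 lowered genes without overlap, and 8 of each direct comparison. The comparison, the lists and the genes were chosen with earlier results of these data known. Counting intervals are exact and cover counting error alone. Promoters are from RefSeq (GRCr8), a build other than that of the counts.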

Additional observations from a re-analysis of the deposited data

Results flagged for a closer look

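Values that lay far from the rest of their group were looked for in 127 genes and in the marker shares. The gap of the highest or lowest library to its nearest neighbour was divided by the range of the group (Dixon's ratio at its 95% critical value). Gap and range were taken on the log2 scale, whereas values below are normalized counts and percent of counts. On the log2 scale *Ltbp2* was not flagged, although RV PAB-F replicate 1 lay far above the others in counts. Chance alone flags about 1 in 20 groups, and of the 254 groups of gene values 11 in RV PAB-F and 7 in RV Sham-F were flagged, 10 of the 11 for RV PAB-F replicate 1. In normalized counts, this library was the highest for *Slc2a1* (1094, the next being 712), *Col8a1* (801, next 175), *Il1b* (512, next 83.9) and *Ptgs2* (698, next 109). It was the lowest for *Kcnj3* (667, the next being 1263), *Erbb4* (319, next 556), *Vegfa* (13996, next 22214), *Trim63* (2128, next 3683), *Dlgap1* (27.4, next 73.3) and *Gabrb2* (24.7, next 109). It also had the highest share of mural cell markers (0.645% of counts, next 0.51%) and of red blood cell markers (0.00835%, next 0.00481%). *Myl4* was the other gene flagged in RV PAB-F, with 207 normalized counts in replicate 5 and 36.6 in the next library.

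In RV Sham-F, replicate 9 was the lowest for *Tnc* (0, the next being 4.58), *Lox* (7.42, next 18.1) and *Tgfa* (2.47, next 9.75). Replicate 3 was the highest for *Postn* (52.9, next 26.9), replicate 4 the highest for *Ecm1* (735, next 541), replicate 7 the lowest for *Ptgs2* (12.2, next 31.0) and replicate 1 the lowest for *Uchl1* (3.67, next 8.74). Mesothelial and epicardial markers took 0.00678% of counts in replicate 2 (next 0.00296%), and neutrophil markers took 0% in replicate 6.

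The response to banding differed between the ventricles for 20 genes named above, by the test of the difference in edgeR at an adjusted p under 0.05, with no block for the animal. In RV minus LV on the log2 scale, the differences were 5.30 for *Nppa*, 1.997 for *Nppb*, 2.73 for *Penk*, 1.66 for *Hyal1*, 2.80 for *Ankrd23*, 1.07 for *Sema3b* and 2.03 for *Sypl2*, a synaptophysin-like protein, and these 7 also passed without RV PAB-F replicate 1. With all libraries, but not without replicate 1, the difference passed for *Acta1* (2.07), *Tln1* (0.66), *Ctgf* (1.51), *Ecm1* (1.19), *Cilp* (2.51), *Tgm2* (1.52), *Pcolce* (1.47), *Tgfb2* (2.06), *Fstl3* (1.37), *Tgfa* (2.84), *Akip1* (2.08) and *Pcdh11x* (−2.05). *Hs3st2* (5.10) belongs to the same group and had few counts in the shams. With the animal as a block all 20 passed, and with the block and without the animal of replicate 1 so did *Nppa*, *Nppb*, *Penk*, *Hyal1*, *Ankrd23*, *Sema3b*, *Tgm2* (adjusted p = 0.0425), *Pcolce* (0.0469), *Tgfa* (0.0466) and *Pcdh11x* (0.0444), whereas *Sypl2* did not (0.0505).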

How the results depend on the processing

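Of RV PAB-F against RV Sham-F, the count of 1325 genes became 2726 (1594 higher, 1132 lower) with the 15 libraries alone, 2650 with sample quality weights, 326 in males alone and 54 without the males. Leaving out 1 library gave 358 (RV PAB-F replicate 1) to 1714, with 831 without replicate 2, and with replicate 1 left out of the 15 libraries alone it was 1642. The 227 genes of the study's criteria became 428 with a minimum mean of 10, 89 with the 15 libraries alone without replicate 1, and 89 (without replicate 1) to 323 when 1 library was left out. With the replicate number as a block they were 121 (109 shared), and the 1325 became 1214 (714 shared). Same-numbered animals of both groups are different rats, their deviations correlated at r = 0.0363 to 0.249, and 1 of 6 libraries matched its own number best, so that the numbers were not taken to pair them. The 42 genes of RV minus LV became 21 with size factors of DESeq2, 16 without a filter, 349 with the animal as a replicate block, 26 with that block and without the animal of replicate 1, and 7 (without replicate 1) to 99 when 1 banded library was left out. The 0 genes of failing minus compensated stage became 0 to 1. The 497 genes of RV PAB-F against RV AOB-F became 80 (without replicate 1) to 695, with 218 without replicate 2.

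No called value named here changed its sign. Of genes that did not pass, *Cpt1b* came to 0.04 and *Vegfa* to 0.01 without replicate 1, *Actc1* to −0.04 without replicate 4 and −0.01 with sex added, and *Cpt1b* and *Gata4* to 0.01 and 0.08 under the replicate block, with *Gata4* at 0.10 in males alone. For the 127 genes named, size factors of DESeq2 changed no call and the Wald test of DESeq2 changed 1, that of *Myh6*. Calls lost numbered 36 without replicate 1, 18 without replicate 2, 2, 3 and 10 without replicates 3, 4 and 5, 40 in males alone and 20 under the replicate block. Calls gained numbered 4 with the 15 libraries alone (*Slc2a1*, *Pdgfra*, *Mki67* and *Hspa1a*), 2 under the replicate block (*Pdgfra* and *Hspa1a*) and 2 without replicate 4 (*Slc2a1* and *Pdgfra*). The cause of these changes was not tested, but males alone, without the males and the fits without a library rest on fewer samples. Low depth limits *Hs3st2*, *Thbs4* and *Ccl11*, which had few counts in the shams.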

Other observations

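Of 16 cyclic nucleotide phosphodiesterases 3 rose (18.8%) and 2 fell (12.5%), beside 7.66% and 3.42% of all genes tested. *Pde4d* and *Pde4a*, which degrade cAMP, fell (−0.65 ± 0.17, adjusted p = 0.00874 and −0.48 ± 0.13, adjusted p = 0.0104), and *Pde2a*, which cGMP activates, rose (0.42 ± 0.12, adjusted p = 0.0134), whereas 0 of the 16 passed without RV PAB-F replicate 1. Of 45 further growth factors and hormones 9 rose (20%) and 5 fell (11.1%), and without replicate 1 these were 2 and 0. Among the lowered ones was *Angpt1*, an endothelial survival ligand (−1.29 ± 0.34, adjusted p = 0.00759, and −1.10, adjusted p = 0.0626 without replicate 1). Of 14 components of the renin-angiotensin and endothelin systems 2 rose, *Ednrb*, an endothelin receptor (1.03 ± 0.24, adjusted p = 0.00277), and *Atp6ap2*, the prorenin receptor (0.52 ± 0.17, adjusted p = 0.0325), and 0 passed without that library. Of 39 microtubule and cytoskeleton genes 7 rose with all libraries and 2 without replicate 1. *Tuba1a*, a tubulin (0.89 ± 0.25, adjusted p = 0.0146), and *Vim*, the intermediate filament of non-muscle cells (0.87 ± 0.25, adjusted p = 0.0149), did not pass without it. Without replicate 2 the adjusted p was 0.0603 for *Pde2a*, 0.0707 for *Atp6ap2* and 0.0542 for *Tuba1a*, and without replicate 5 it was 0.0648 for *Atp6ap2*.

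Of 30 heat shock proteins and chaperones 2 rose with and without replicate 1 (6.67% with it, beside 7.66% of all genes tested). These were *Hspa1l*, a relative of HSP70 (0.76 ± 0.20, adjusted p = 0.00813 and 0.77, adjusted p = 0.0248), and *Dnajb5*, an HSP40 co-chaperone (0.34 ± 0.10, adjusted p = 0.0202 and 0.38, adjusted p = 0.0341). *Hspa1l* did not pass without replicate 2 (adjusted p = 0.0521), and *Dnajb5* did not without replicate 2, 4 or 5 (adjusted p = 0.0566, 0.0690 and 0.0631). Of 33 genes of the integrated and endoplasmic reticulum stress response 1 rose (*Gdf15*, 3.03%) and 2 fell (6.06%), beside 7.66% and 3.42% of all genes tested. Among the lowered ones was *Atf4*, the main transcription factor of that response (−0.54 ± 0.14, adjusted p = 0.00752, and −0.47, adjusted p = 0.0605 without replicate 1). Among 20 aminoacyl-tRNA synthetases, 15 circadian clock genes and 10 genes of the intercalated disc 0 passed in edgeR, the medians of their log2 fold changes being −0.09, −0.09 and −0.15. Of 78 cytosolic ribosomal proteins 0 rose and 1 fell (median −0.18), and of 66 mitochondrial ribosomal proteins 0 rose and 3 fell (median −0.22).

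The raised genes were set beside the difference between the ventricles of younger shams (LV Sham-H against RV Sham-H), which come from other animals. The comparison was chosen after the data were seen, and the overlaps were not tested. In the older shams fibroblast and endothelial markers took a larger share of counts in the LV than in the RV. Such shares were not computed for LV Sham-H, and the part of other cells in the overlaps was not tested. Of 11954 genes, 2510 differed between these ventricles, 1360 of them higher in the LV (11.4%) and 1150 lower (9.62%). Of the 916 genes raised in RV PAB-F 344 were higher in the LV of the shams (37.6%) and 1 was lower (0.109%). Of the 409 lowered genes 107 were lower in the LV (26.2%) and 1 was higher (0.244%). Among genes that passed without replicate 1 too, 110 of 258 raised genes were higher in the LV (42.6%) and 40 of 98 lowered genes were lower (40.8%), against 1 in the other direction in each case.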
